A study of Homo sapiens with 12 samples.

Results

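Transcripts of 10 innate defence genes were followed on 12 bead arrays of MCF10A, an immortalised, non-tumorigenic line of human breast epithelium. The genes were CFB, C3, LCN2, SAA1, SAA2, SOD2, CD14, CD55, CD59 and NFKBIA, and every probe whose array annotation carries one of these symbols was taken. They are 10 of the 20046 genes with a symbol on the array. Of their 17 probes, 15 passed the detection filter, and each of the 10 genes kept at least 1 probe. The 3 groups were cells carrying a control vector (VEC) and cells that stably express the JM-a ERBB4 intracellular domain (ICD) as either CYT1 or CYT2. ERBB4 is a receptor tyrosine kinase of the EGF receptor family, and its ICD is the part released into the cell by cleavage. All 3 groups were grown in the same regular medium with serum, and no group received an added cytokine or other agent per the labels. CYT1 contains a binding site for the lipid kinase PI3K, and CYT2 does not. Each group had 4 arrays, titled as 2 biological replicates of 2 technical arrays. Whether each line is a clone or a pool, and whether the biological replicates were separate cultures, is not given in the sources used here. The p-values therefore measure the spread between these replicates, which may be technical.

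Complement is a cascade of plasma and tissue proteins in which activated C3 is deposited on surfaces. In its alternative pathway factor B, the product of CFB, joins C3 fragments to form the enzyme that activates more C3. CD55 speeds the decay of that enzyme on the cell's own membrane, and CD59 blocks assembly of the membrane attack complex there. Acute phase proteins are secreted in inflammation, chiefly by liver and also by epithelia. They include the serum amyloid A proteins SAA1 and SAA2 and the siderophore-binding lipocalin LCN2. CD14 is a co-receptor that presents bacterial lipopolysaccharide to Toll-like receptors. NFKBIA encodes an inhibitor that holds NF-kB in the cytoplasm and is itself an NF-kB target, and SOD2 is the mitochondrial superoxide dismutase, also a known NF-kB target.

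The arrays detected 17514 to 18721 probes each (37.0% to 39.6% of all probes). The 1 probe of ERBB4 was detected on 0 of 12 arrays (lowest detection p 0.439). Its place relative to the ICD is unknown, so it is no check of the labels. The arrays did not pair clearly as their titles say. Over all probes tested, the deviations from the group mean of 2 arrays of a group that share a technical number correlated at -0.31 to -0.19 over 6 pairs. Arrays that share a biological number, which should be closest, correlated at -0.39 to -0.31, and arrays that share neither at -0.43 to -0.35. Deviations within a group sum to 0, so negative values are built in and only their order is informative. The median was -0.26 for a shared technical number and -0.36 for a shared biological number, and the 2 ranges meet at -0.31. The calls below rest on the biological replicates as titled. With the technical number taken as the replicate the changes are the same and only the adjusted p moves. The probe that represents each gene then kept its call against VEC, except for NFKBIA.

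**Figure D1:**
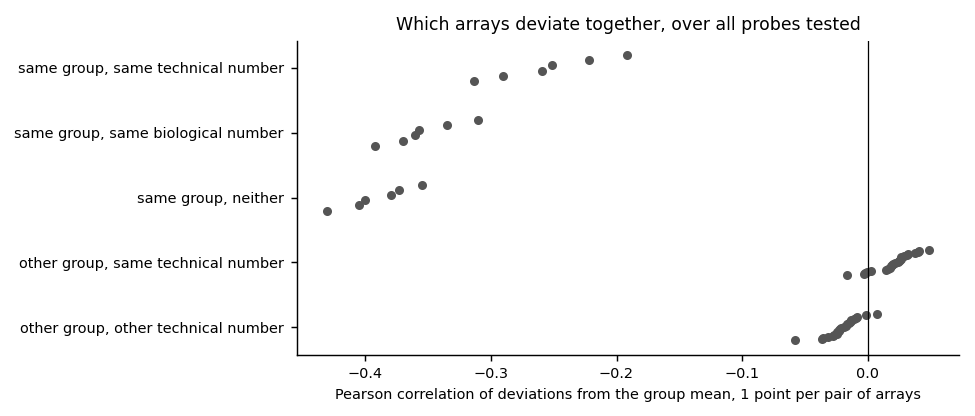
Pearson correlation between arrays of their deviations from the group mean over all probes tested, with 1 point for each pair of arrays, sorted by what the pair shares. Within a group the pairs that share a technical number (median -0.26) lie mostly to the right of those that share a biological number (median -0.36), and the 2 ranges meet at -0.31.

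Promoter windows of 250 bases before the start were present in the RefSeq table (GRCh38.p14) for 7 of the 10 genes. The windows of CFB, LCN2 and NFKBIA are shown because each holds a match to the kappa-B consensus, the DNA element read by NF-kB. These 3 genes also cover a rise, a fall and a small rise in the cells described here. The match is in capitals.

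CFB: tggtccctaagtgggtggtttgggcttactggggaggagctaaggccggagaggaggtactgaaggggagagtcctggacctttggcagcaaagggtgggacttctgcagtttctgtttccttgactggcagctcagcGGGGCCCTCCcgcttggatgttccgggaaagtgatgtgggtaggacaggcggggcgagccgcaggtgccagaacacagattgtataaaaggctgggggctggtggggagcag

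LCN2: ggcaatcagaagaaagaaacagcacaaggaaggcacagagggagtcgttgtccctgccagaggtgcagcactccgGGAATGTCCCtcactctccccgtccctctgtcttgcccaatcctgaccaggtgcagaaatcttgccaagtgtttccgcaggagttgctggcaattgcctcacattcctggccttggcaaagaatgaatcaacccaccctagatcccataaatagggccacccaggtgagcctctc

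NFKBIA: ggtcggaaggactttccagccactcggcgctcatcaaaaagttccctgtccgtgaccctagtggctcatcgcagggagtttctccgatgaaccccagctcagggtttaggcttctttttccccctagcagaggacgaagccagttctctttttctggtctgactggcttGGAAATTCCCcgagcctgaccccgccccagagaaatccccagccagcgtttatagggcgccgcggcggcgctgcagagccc

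The CFB window is chr6:31945845-31946094 on the plus strand, and its match lies 112 to 103 bases before the start, on the gene's own strand. The LCN2 window is chr9:128149203-128149452 on the plus strand, with the match 175 to 166 bases before the start on the opposite strand. The NFKBIA window is chr14:35404750-35404999 on the minus strand, with the match 81 to 72 bases before the start on the opposite strand. Both strands were searched. A kappa-B match was found in 9.96% of all 35116 windows of this length and for 11.8% of all genes with a window, against 3 of these 7 genes. The windows of SOD2, also a known NF-kB target, held no match. The genes chosen include known NF-kB targets, so a share above that of all genes is no test. The STAT palindrome TTCNNNGAA was found for 3 of the 7 genes (CFB, CD14 and CD59), in 6.57% of all windows and for 8.09% of all genes. In CFB it lies 92 to 84 bases before the start and does not overlap the kappa-B match. The pair of C/EBP half-sites TTNNGNAAT was found for 1 of the 7 genes (CD14), in 9.85% of all windows and for 11.9% of all genes. A match describes letters in a window and is no measure of binding.

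Against VEC, cells with either ICD form had about 3-fold more CFB transcript and about 3-fold less LCN2. The membrane regulators CD55 and CD59 were lower in both. An effect of the ICD cannot be told apart here from other differences between the lines. With CYT1, 3 of the 10 genes rose (CFB, SOD2, NFKBIA) and 6 fell (C3, LCN2, SAA1, CD14, CD55, CD59), and SAA2 did not pass the test. With CYT2 the same 3 rose and 4 fell (C3, LCN2, CD55, CD59), while SAA1, SAA2 and CD14 did not pass. Of all 10371 genes, 39.3% were called for CYT1 against VEC (18.6% higher and 20.7% lower) and 33.6% for CYT2 against VEC (16.1% higher and 17.6% lower), so calls were common in both. The median log2 change of the 10 genes was -0.53 with CYT1 and -0.06 with CYT2, beside -0.05 over all genes in both. The 4 ICD arrays lay apart from the 4 VEC arrays for 9 of the 10 genes with CYT1 and 7 with CYT2, beside 42.2% and 39.3% of all genes. The genes were chosen with earlier results of these data known, so an excess over all genes is no test. Both comparisons use the same VEC arrays.

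**Figure D2:**
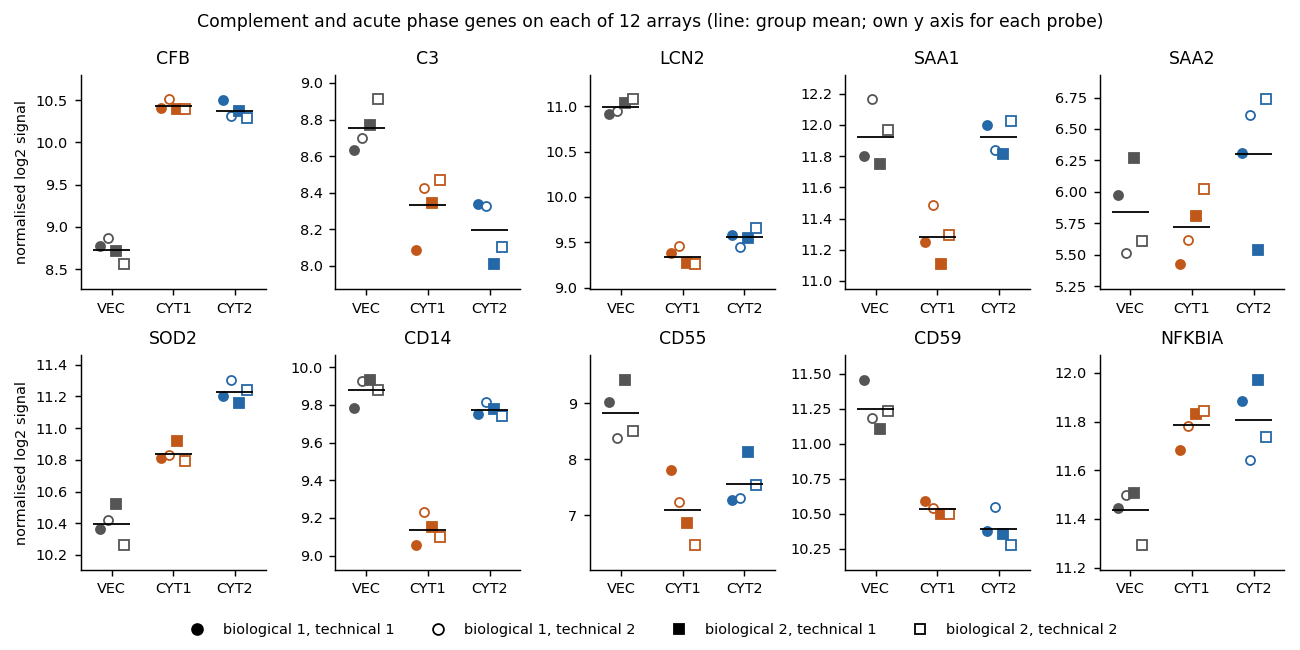
Normalised log2 signal of the representative probe of each gene on the 12 arrays, by group, each panel with its own y axis. Circles are biological replicate 1 and squares replicate 2, filled symbols technical array 1 and open symbols technical array 2, and the line is the group mean. The 8 arrays with an ICD lie above all VEC arrays for CFB, SOD2 and NFKBIA and below them for C3, LCN2, CD55 and CD59.

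In what follows a level is a normalised log2 signal, in which 1 unit is a doubling, and the 4 arrays of a group are given as replicate 1 technical 1 and 2, then replicate 2 technical 1 and 2. A gene is called where its adjusted p in the limma model is under 0.05, with Benjamini-Hochberg adjustment over all 17356 probes tested. The error of a change is the model's standard error (SE), with 2 replicates a group. A probe's level was not set against another probe's. In these bulk samples, fewer cells with a transcript and less of it per cell cannot be told apart.

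CFB, the protease subunit of the alternative pathway convertase, was the complement gene among the 10 that rose. Its VEC arrays read 8.78, 8.86, 8.71 and 8.56. The CYT1 arrays read 10.41, 10.51, 10.40 and 10.40, and the CYT2 arrays 10.51, 10.32, 10.37 and 10.29. The lowest ICD array was above the highest VEC array by more than the range within any group. The log2 change was 1.70 ± 0.10 (SE) with CYT1, a 3.25-fold rise at an adjusted p of 0.000161, and 1.64 ± 0.10 with CYT2 at 0.000233. CFB was called under each of 18 other settings, with adjusted p up to 0.0024 and 0.00393. They were 7.68e-05 and 0.000104 with the technical number as the replicate.

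C3, the central complement component that factor B acts with, fell where CFB rose. Its VEC arrays read 8.63, 8.70, 8.77 and 8.91, against 8.09, 8.43, 8.34 and 8.47 with CYT1. The CYT2 arrays read 8.34, 8.33, 8.01 and 8.10. All 8 ICD arrays lay below all VEC arrays, but the gap was small beside the spread. The change was -0.42 ± 0.13 with CYT1, at an adjusted p of 0.047, and -0.56 ± 0.13 with CYT2, at 0.0219. The CYT1 call ended under 8 of 18 other settings, with adjusted p up to 0.191, and the CYT2 call under 5, with adjusted p up to 0.105. The CYT1 call was lost without either VEC or either CYT1 replicate (-0.33 without VEC replicate 2), and the CYT2 call without either VEC replicate or CYT2 replicate 2 (-0.42). Both calls held, at 0.0357 and 0.0161, with the technical number as the replicate. A second C3 probe was not tested, as it was detected on 2 VEC, 2 CYT1 and 1 CYT2 array.

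CD55, the decay-accelerating factor, was lower with both ICD forms. The VEC arrays read 9.03, 8.37, 9.41 and 8.51, and the CYT1 arrays 7.81, 7.24, 6.86 and 6.47. With CYT2 they read 7.27, 7.30, 8.13 and 7.54. No ICD array reached the lowest VEC array, although each group spanned more than for most of the other genes. The log2 change was -1.74 ± 0.31 with CYT1 (3.33-fold lower, adjusted p = 0.00806) and -1.27 ± 0.31 with CYT2 (2.41-fold lower, adjusted p = 0.0277). The CYT1 call held under each of 18 other settings, with adjusted p up to 0.0465. The CYT2 call ended under 5 of them, among them without VEC replicate 1 (-1.40, adjusted p = 0.0744), without VEC replicate 2 (-1.14, 0.119) and without CYT2 replicate 1 (-0.99, 0.126). Both calls held with the technical number as the replicate, at 0.00348 and 0.0152.

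CD59, the inhibitor of the membrane attack complex, fell by less than CD55 but with a tighter spread. Its brighter probe read 11.45, 11.18, 11.11 and 11.23 on the VEC arrays. The CYT1 arrays read 10.59, 10.54, 10.50 and 10.50, and the CYT2 arrays 10.38, 10.55, 10.35 and 10.28. The ICD arrays lay below all VEC arrays. The log2 change was -0.71 ± 0.10 with CYT1 (adjusted p = 0.00322) and -0.86 ± 0.10 with CYT2 (adjusted p = 0.00219). The second CD59 probe gave -0.72 ± 0.11 and -0.79 ± 0.11, at adjusted p of 0.00381 and 0.00352. Both probes were called under each of 18 other settings. For the brighter probe the adjusted p was 0.00265 and 0.00155 with the technical number as the replicate.

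LCN2, an epithelial and neutrophil protein that takes iron from bacteria by binding their siderophores, showed the largest fall of the acute phase genes tested, with both forms. The VEC arrays read 10.92, 10.95, 11.03 and 11.08, and the CYT1 arrays 9.38, 9.46, 9.27 and 9.26. With CYT2 they read 9.58, 9.45, 9.55 and 9.66. The groups against VEC were apart by over 1 log2 unit and each spanned little. The change was -1.65 ± 0.10 with CYT1 (3.13-fold lower, adjusted p = 0.000185) and -1.43 ± 0.10 with CYT2 (2.70-fold lower, adjusted p = 0.000363). LCN2 was called under each of 18 other settings, with adjusted p up to 0.00271 and 0.00533. It was 6.96e-05 and 0.000143 with the technical number as the replicate.

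SAA1, a lipid-carrying acute phase protein, had 3 probes, which were not called alike with CYT2. On the brightest probe (ILMN_2304512) the VEC arrays read 11.80, 12.16, 11.75 and 11.97, and the CYT1 arrays 11.25, 11.49, 11.11 and 11.29. The CYT2 arrays read 11.999, 11.84, 11.81 and 12.03, within the VEC range, so that only CYT1 stood apart. The log2 change was -0.64 ± 0.10 with CYT1 (adjusted p = 0.00433) and 0.00 with CYT2, at an adjusted p of 0.988 and a 95% interval of -0.24 to 0.23. On ILMN_1701017 the changes were -0.93 ± 0.10 with CYT1 (adjusted p = 0.00149) and -0.46 ± 0.10 with CYT2 (adjusted p = 0.0203). With the technical number as the replicate, the CYT1 falls on these 2 probes stood at 0.0126 and 0.00125. On ILMN_1808732 they were -0.61 ± 0.18 (adjusted p = 0.0415) and 0.17 (adjusted p = 0.516). All 3 SAA1 probes thus fell with CYT1, and with CYT2 1 of 3 fell. The CYT2 call of ILMN_1701017 was lost without VEC replicate 1 (-0.39, adjusted p = 0.101) or without either CYT2 replicate (-0.47 and -0.46). The CYT1 call of ILMN_1808732 was lost without any 1 of 5 of the 6 replicates (-0.33 without CYT1 replicate 2). It was kept without CYT1 replicate 1 (-0.89, adjusted p = 0.00636) and lost with the technical number as the replicate, at 0.0906. SAA1 and SAA2 are near-identical neighbouring genes, so probes of one may also bind transcripts of the other.

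SAA2 was near the detection limit, with its probe detected on 3 VEC, 3 CYT1 and 4 CYT2 arrays. The VEC arrays read 5.97, 5.52, 6.27 and 5.61, the CYT1 arrays 5.42, 5.62, 5.81 and 6.03, and the CYT2 arrays 6.31, 6.61, 5.53 and 6.74. The 3 groups overlap, and 1 CYT2 array lay well below the other 3. The changes were -0.12 ± 0.17 with CYT1 (adjusted p = 0.624) and 0.46 ± 0.17 with CYT2 (adjusted p = 0.101). With technical arrays 2 alone, SAA2 was called with CYT2, at 1.11 and an adjusted p of 0.00997, and with technical arrays 1 alone its change was -0.20 at 0.671. SAA2 was not called with the technical number as the replicate, at 0.766 and 0.26.

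CD14 was lower with CYT1 and not called with CYT2. On its brighter probe the VEC arrays read 9.78, 9.93, 9.93 and 9.88, and the CYT1 arrays 9.06, 9.23, 9.15 and 9.10. The CYT2 arrays read 9.75, 9.82, 9.78 and 9.74. The CYT1 arrays lay below all other arrays, and the CYT2 arrays overlapped the VEC arrays. The change was -0.75 ± 0.08 with CYT1 (1.68-fold lower, adjusted p = 0.00119) and -0.11 ± 0.08 with CYT2 (adjusted p = 0.334, 95% interval -0.30 to 0.08). The dimmer CD14 probe gave -0.79 ± 0.25 with CYT1, at an adjusted p of 0.0513, and -0.13 with CYT2 at 0.729. With the technical number as the replicate, the CYT1 fall of the brighter probe stood at 0.00211 and that of the dimmer probe was called, at 0.00934.

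NFKBIA, the inhibitor of NF-kB, rose by a small amount in both. The VEC arrays read 11.44, 11.50, 11.51 and 11.29, the CYT1 arrays 11.68, 11.78, 11.83 and 11.84, and the CYT2 arrays 11.88, 11.64, 11.97 and 11.74. All ICD arrays lay above all VEC arrays, by a small gap. The change was 0.35 ± 0.09 with CYT1 (adjusted p = 0.0257) and 0.37 ± 0.09 with CYT2 (adjusted p = 0.0243). With the technical number as the replicate, NFKBIA was not called, at adjusted p of 0.0656 and 0.0619. Its call ended under 11 of 18 other settings for CYT1 and 9 of 18 for CYT2, with adjusted p up to 0.224 and 0.179. The CYT1 call was lost without either VEC or either CYT1 replicate (0.30 to 0.40), and the CYT2 call without either VEC or either CYT2 replicate (0.33 to 0.42). With median scaling over all probes the changes were 0.16 and 0.21.

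SOD2, which turns mitochondrial superoxide into peroxide, rose with both forms. The VEC arrays of its brighter probe read 10.36, 10.42, 10.52 and 10.26, the CYT1 arrays 10.81, 10.83, 10.92 and 10.80, and the CYT2 arrays 11.20, 11.30, 11.16 and 11.24. The 3 groups did not overlap, with VEC lowest and CYT2 highest. The change was 0.45 ± 0.08 with CYT1 (1.36-fold, adjusted p = 0.00729) and 0.83 ± 0.08 with CYT2 (1.78-fold, adjusted p = 0.00105). A second SOD2 probe gave 0.49 ± 0.14 (adjusted p = 0.0425) and 0.996 ± 0.14 (adjusted p = 0.00463), and the third was detected on 0 of 12 arrays and was not tested. The CYT1 call of the second probe was lost without either VEC or either CYT1 replicate (0.37 to 0.61). The CYT2 rise was called under each of 18 other settings on both tested probes. The CYT1 rise of the brighter probe was lost under 2 of them, median scaling over all probes (adjusted p = 0.0569) and technical arrays 1 alone (0.0504). The brighter probe stood at 0.0189 and 0.00204 with the technical number as the replicate.

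**Figure D3:**
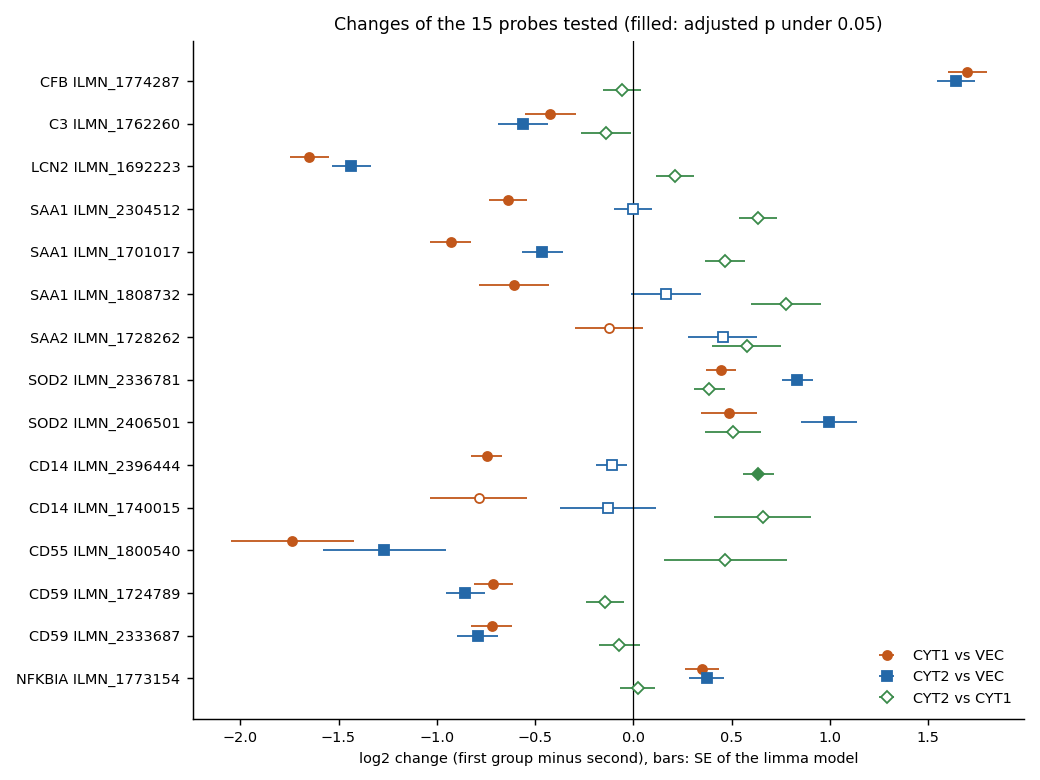
Log2 change with the SE of the limma model for the 15 tested probes, in each of the 3 contrasts, with filled symbols where the adjusted p was under 0.05. CFB lies near 1.7 for both ICD forms and LCN2 near -1.5, and in CYT2 against CYT1 the brighter CD14 probe is the 1 filled symbol.

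The direct comparison of the ICD forms, of which only CYT1 contains the PI3K binding site, called 1 of the 10 genes. Over all genes 0.550% were called (0.241% higher and 0.309% lower in CYT2). CD14 was 1.55-fold higher in CYT2 than in CYT1, a change of 0.64 ± 0.08 at an adjusted p of 0.0449. The call was lost under 13 of 18 other settings, among them without any 1 of the 6 replicates (0.62 to 0.65), with adjusted p up to 0.234, and stood at 0.0767 with the technical number as the replicate. SAA1 and SOD2 did not pass, although their 4 CYT2 arrays also lay above their 4 CYT1 arrays, as was the case in either direction for 13.2% of all genes. SAA1 differed by 0.64 (95% interval 0.40 to 0.87, adjusted p = 0.06) and SOD2 by 0.39 (0.20 to 0.58, adjusted p = 0.0928). SAA1 was called under 5 other settings and SOD2 under 4, among them quantile scaling of the uncorrected signals. SAA2 differed by 0.58, with an interval of 0.151 to 1.005 and an adjusted p of 0.183.

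For the genes that moved alike with both forms, the intervals of the difference bound how far the forms could differ. They ran from -0.29 to 0.18 for CFB, from -0.45 to 0.17 for C3 and from -0.03 to 0.45 for LCN2. For NFKBIA the interval was -0.19 to 0.24 and for the brighter CD59 probe -0.39 to 0.10. For CD55 it was -0.29 to 1.23, so a difference of over 2-fold is within it. The adjusted p of these 6 genes was 0.331 or more, which does not show that the forms act alike.

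**Figure D4:**
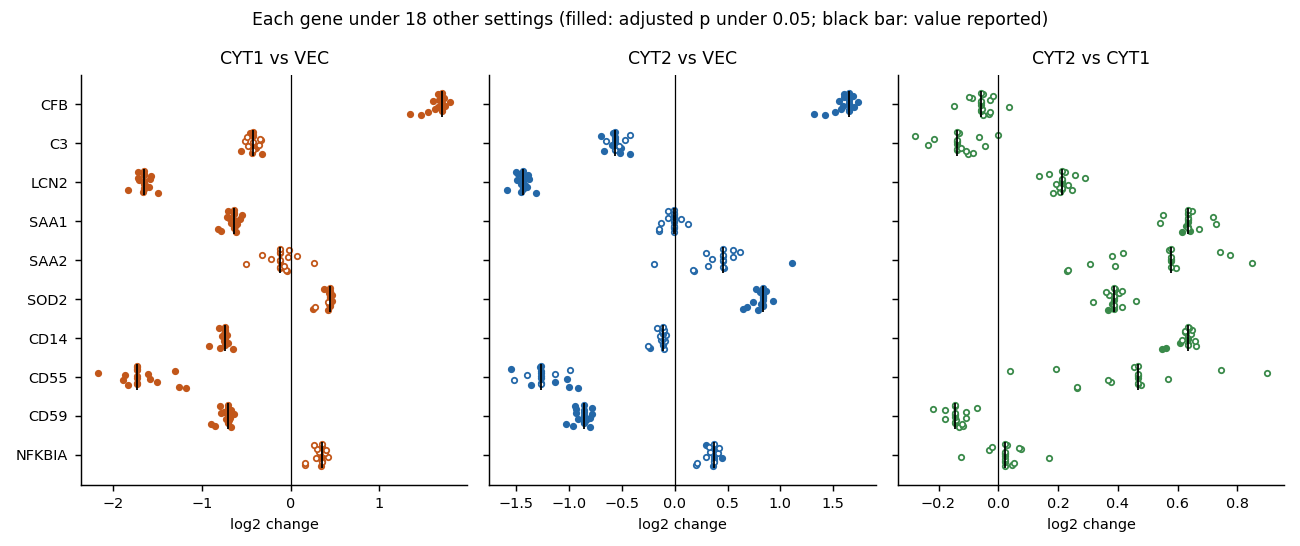
Log2 change of each gene's representative probe under the 18 other settings (points, filled where the adjusted p was under 0.05) and as reported (black bar), for the 3 contrasts. CFB and LCN2 are filled under every setting against VEC, while C3 and NFKBIA change between filled and open.

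Of the wider complement system, the classical pathway proteases C1R and C1S rose from below detection with both forms. Of 23 listed complement components 8 were tested, and 4 rose and 2 fell with each form, at a median change of 0.33 and 0.55. Over all genes, 39.3% were called with CYT1 and 33.6% with CYT2, to be read beside the counts of this and each following list. The lists, like the 10 genes, were chosen with earlier results of these data known. A count above these shares is therefore no test. C1R and C1S, counted among the 4 that rose, were each detected on 0 of 4 VEC arrays and on all 8 ICD arrays. They passed the detection filter only through the ICD arrays, which fixed their direction, so no p-value is given for them. C1R was at least 4.86-fold higher with CYT1 and at least 5.12-fold with CYT2. C1S was at least 3.40-fold and at least 3.59-fold higher. C5, a component of the terminal pathway, rose by 0.52 ± 0.11 with CYT1 and 0.93 ± 0.11 with CYT2 (adjusted p = 0.0127 and 0.00201). CFD, the protease that cleaves factor B, changed by -1.23 ± 0.18 and -1.06 ± 0.18 (adjusted p = 0.00359 and 0.00749), so it fell where its substrate rose.

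Of 14 complement regulators 4 were tested, and with each form 1 rose and 3 fell, among them CD55 and CD59. The riser was CFI, the protease that inactivates C3b, with 1.51 ± 0.08 for CYT1 and 1.52 ± 0.08 for CYT2 (adjusted p = 0.00015 and 0.000185). C1QBP, a mitochondrial protein that also binds C1q, changed by -0.52 (adjusted p = 0.0103) and -0.35 (adjusted p = 0.0436), the latter call lost under 11 of 18 other settings. Of 8 complement receptors only ITGB2, the beta subunit of complement receptor 3, was tested, and it rose by 0.90 ± 0.10 and 0.70 ± 0.10 (adjusted p = 0.00173 and 0.00534). ITGAM, another gene of this list, was detected on 1 of 12 arrays and was not tested.

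Among acute phase proteins, the serpin SERPINA3 rose while LCN2 fell. Of 25 listed genes 8 were tested, and 2 rose and 3 fell with CYT1, while 3 rose and 1 fell with CYT2. SERPINA3, alpha-1-antichymotrypsin, rose by 1.75 ± 0.10 with CYT1 and 2.12 ± 0.10 with CYT2 (adjusted p = 0.00016 and 0.000102). SAA4, the constitutive serum amyloid A gene, fell with CYT1 (-0.86 ± 0.14, adjusted p = 0.00604) and was at -0.38 with CYT2 (adjusted p = 0.0954). SERPINA1, alpha-1-antitrypsin, was at 0.25 with CYT1 (adjusted p = 0.146) and rose by 0.53 with CYT2 (adjusted p = 0.0197). In this list, too, changes ran in both directions.

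Epithelial antimicrobial proteins also split. Of 7 tested among 19 listed, 3 rose and 3 fell with CYT1, and 4 rose and 3 fell with CYT2. The elastase inhibitor PI3 rose by 1.39 ± 0.12 and 1.23 ± 0.12 (adjusted p = 0.000517 and 0.00105). S100A8, a subunit of calprotectin, rose by 0.56 ± 0.08 and 1.07 ± 0.08 (adjusted p = 0.00356 and 0.000473). The beta-defensin DEFB103A, counted among the genes that rose, was detected on 0 of 4 VEC arrays and on all ICD arrays. It was at least 1.47-fold higher with CYT1 and at least 1.30-fold higher with CYT2. It too passed the detection filter only through the ICD arrays, so no p-value is given. The antimicrobial ribonuclease RNASE7 fell, with -0.96 ± 0.10 and -1.02 ± 0.10 (adjusted p = 0.0012 and 0.00126), as LCN2 did.

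Of the NF-kB subunits and inhibitors 18 were tested among 21 listed, 2 rose and 2 fell with CYT1, and 1 rose and 2 fell with CYT2. This was below the 39.3% and 33.6% of all genes called. CHUK, an I-kappa-B kinase subunit, was at -0.62 and -0.54 (adjusted p = 0.00639 and 0.0125). NFKBIB, a second inhibitor of NF-kB, was at -0.46 and -0.32 (adjusted p = 0.00711 and 0.0295). IKBKG, the regulatory kinase subunit, was at 0.35 with CYT1 (adjusted p = 0.0244) and 0.22 with CYT2 (adjusted p = 0.103). The CYT2 call of NFKBIB and the CYT1 call of IKBKG were lost under 10 and 9 of 18 other settings, and the count called ran from 0 to 6 over the other settings with each form.

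In Toll-like and IL-1 receptor signalling no gene rose. Of 13 tested among 23 listed, 7 fell with CYT1 and 5 with CYT2, at medians of -0.40 and -0.28. Over all genes 20.7% and 17.6% were called lower. IL1RN, the secreted antagonist of the IL-1 receptor, was at -1.54 ± 0.11 and -1.76 ± 0.11 on the log2 scale (adjusted p = 0.000352 and 0.000303). IL1RAP, the receptor's accessory chain, was at -1.04 ± 0.17 and -1.10 ± 0.17 (adjusted p = 0.00528 and 0.00566). TLR5, the flagellin receptor, was detected on 4 of 4 VEC arrays, 1 of 4 CYT1 arrays and 2 of 4 CYT2 arrays. It would not have passed the detection filter without the VEC arrays, which favours a fall. Its changes were -0.90 ± 0.10 and -0.79 ± 0.10 (adjusted p = 0.00167 and 0.00339). The kinase IRAK1 was at -0.67 and -0.57 (adjusted p = 0.016 and 0.0314), so the genes that fell include both an inhibitor and parts of the signalling chain.

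In IL-6 family and STAT3 signalling, 4 of 12 tested genes rose and 1 fell with CYT1, and 5 rose and 1 fell with CYT2. Over all genes 39.3% and 33.6% were called, so with CYT1 the list was near that share. IL6 was detected on 2 of 4 VEC arrays and on all ICD arrays, with array levels that overlap. Without the ICD arrays IL6 would not have passed the detection filter, which favours a rise. IL6 was at 0.70 ± 0.18 and 0.83 ± 0.18 (adjusted p = 0.0272 and 0.0181). IL6ST, its signalling receptor chain, rose with CYT1 (0.69 ± 0.08, adjusted p = 0.00146) and was at 0.21 with CYT2 (adjusted p = 0.0922). PIAS3, an inhibitor of STAT3, rose by 0.74 and 0.42 (adjusted p = 0.00417 and 0.0346). PIM1, a kinase gene known as a STAT target, was at -0.78 ± 0.09 and -0.68 ± 0.09 (adjusted p = 0.002 and 0.00407), the 1 gene of the list that fell.

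Of 9 tested superoxide and peroxide enzymes, 3 rose and 0 fell with each form in the limma model, and SOD2 was one of them. The share called was no larger than over all genes (39.3% with CYT1 and 33.6% with CYT2). Catalase (CAT) rose by 0.75 ± 0.13 and 0.62 ± 0.13 (adjusted p = 0.00715 and 0.017). The lipid peroxidase GPX4 rose by 0.52 ± 0.08 and 0.45 ± 0.08 (adjusted p = 0.00408 and 0.00853). In the comparison of CYT2 with CYT1, CD14 was the 1 gene called over the 9 lists.

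**Figure D5:**
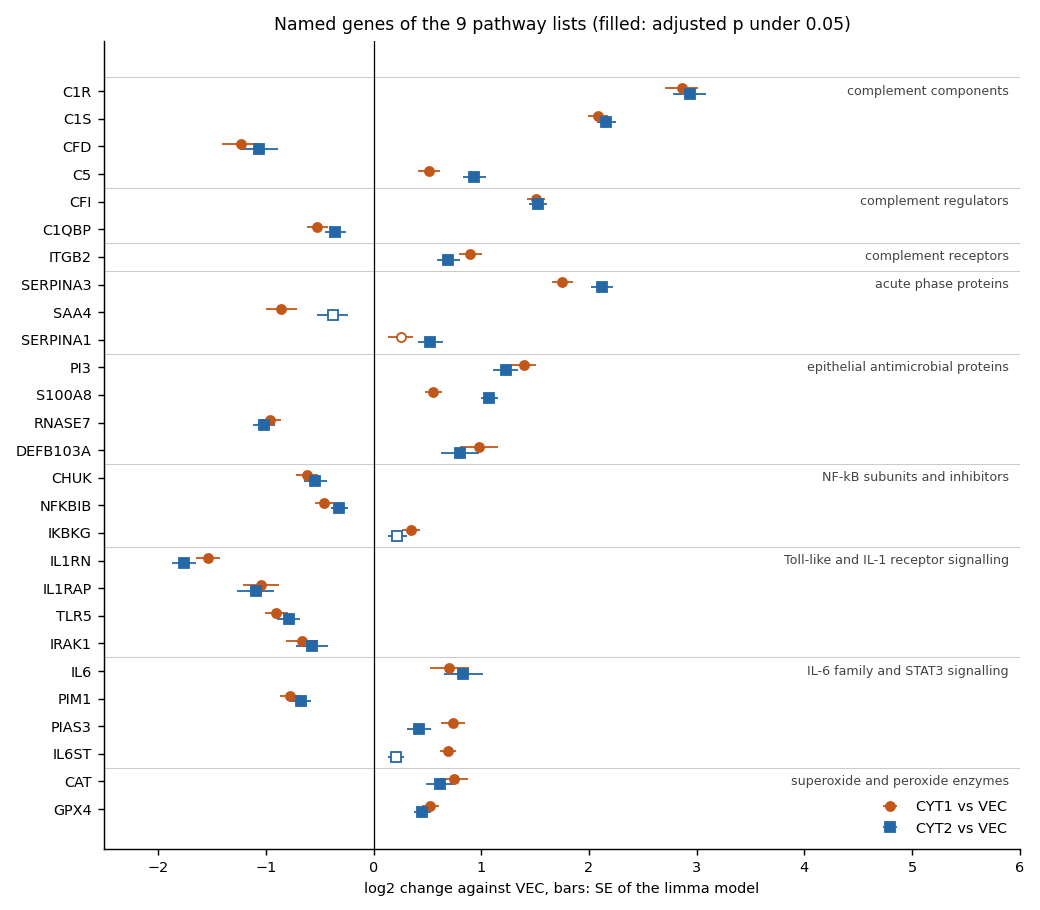
Log2 change against VEC with the SE of the limma model for the named genes of the 9 pathway lists that are not among the 10 genes, with filled symbols where the adjusted p was under 0.05. C1R, C1S, CFI and SERPINA3 lie to the right and IL1RN, IL1RAP, CFD and RNASE7 to the left for both ICD forms. C1R, C1S and DEFB103A, undetected in VEC, are drawn at the model's change and not at the bound. They passed the detection filter only through the ICD arrays, so their filled symbols are no test.

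Markers of other cells that make these proteins were read beside them. Of 10 hepatocyte markers, 9 were on the array and 0 passed the filter. APOA1, APOA2, APOB, AMBP, SERPINC1 and CYP3A4 were detected on 0 of 12 arrays. ALB was detected on 6 of 12 arrays (1 VEC, 2 CYT1 and 3 CYT2), TTR on 3 and FGB on 1. Of 11 leukocyte markers on the array, 4 were tested. PTPRC, CD3E, CD163 and FCGR1A were detected on 0 of 12 arrays, LAPTM5 and MS4A1 on 4 each and ITGAM on 1. The summed linear level was 2543 to 2749 on VEC, 2248 to 2391 on CYT1 and 1969 to 2052 on CYT2 arrays. CD68, the macrophage-associated lysosomal protein, fell with both forms (-0.34 and -0.72, adjusted p = 0.0192 and 0.0017). It is the brightest leukocyte marker tested and weighs most in the summed level. The actin-binding CORO1A rose with both (0.68 and 0.90, adjusted p = 0.0291 and 0.0136). CSF1R, a growth factor receptor of macrophages, rose with CYT2 (0.44, adjusted p = 0.0111), so 1 rose and 1 fell with CYT1, and 2 rose and 1 fell with CYT2. Fibroblast markers moved with the ICD groups. Of 10, 5 were tested, and 4 of them rose with each form. With CYT1 and CYT2, DCN changed by 5.07 and 4.045, FAP by 3.15 and 2.59, COL1A1 by 1.51 and 1.01 and FBLN1 by 1.23 and 1.19. COL1A2 was not called, and COL1A1 was detected on 1 of 4 VEC arrays and on all ICD arrays. Without the ICD arrays COL1A1 would not have passed the detection filter, which favours a rise. The summed level of the 10 markers was 3163 to 3747 on VEC, 11270 to 12700 on CYT1 and 9169 to 10300 on CYT2 arrays. FBLN1, the brightest of them, weighs most in this sum, with mean levels of 11.57 on VEC, 12.79 on CYT1 and 12.76 on CYT2 arrays. FBLN1, DCN and FAP were detected on all 12 arrays, those of VEC included. LUM, COL3A1, PDGFRB and THY1 were detected on 0 of 12 arrays and PDGFRA on 1. The part of these markers in the rise of CFB, C1R and C1S was not tested. All 9 breast epithelial markers on the array were tested, and their summed level was 23800 to 25620 on VEC, 18120 to 20350 on CYT1 and 20980 to 22110 on CYT2 arrays. LAMB3, the brightest of them, weighs most in this sum, with mean levels of 13.69 on VEC, 12.98 on CYT1 and 13.16 on CYT2 arrays. With CYT1 2 of the 9 rose and 5 fell, and with CYT2 3 rose and 4 fell. The basal keratins KRT5 (1.08 and 0.95) and KRT14 (1.60 and 0.51) rose with both forms, and KRT8 rose with CYT2 (1.01). KRT18, ITGA6, CDH1 and LAMB3 fell with both, and EPCAM fell with CYT1.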

How the data were processed

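Per the labels, RNA of 3 groups of MCF10A cells was labelled as biotin cRNA and hybridised to 12 Illumina bead arrays. The authors deposited average bead intensity per probe, neither background-subtracted nor normalised, with a detection p-value in steps of 1 in 770. A second deposited table holds log2 values that equal log2 of those intensities within 5e-09, and by this identity each signal and detection column was joined to its sample, as the column names alone do not show which mark is the biological number. The sources used here do not name the scanner software.

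Signals were corrected and quantile-normalised with neqc of limma 3.58.1 (R 4.3.3, negative controls inferred from detection p, offset 16), so folds of dim probes are understated. Probes entered the test if 2 or more of the 6 biological replicates had detection p under 0.05 on each of their technical arrays. Technical arrays were averaged, and 1 limma model of the 3 groups (3 residual degrees of freedom, prior 3.07) gave two-sided moderated tests, adjusted by Benjamini-Hochberg over 17356 probes. A gene is represented by its tested probe of highest mean. Where a group had no detected array, a fold is a bound against the higher of the lowest detected signal and the probe's own. The annotation gave 1 symbol for 30113 probes, several for 8 and none for 17202.

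The genes and lists were chosen with earlier results of these data known. All 10 genes are named, then per list up to 4 other genes called with the largest change, filled to 2 by smallest p. Array numbers limit the precision. The model was tested on simulated data. Figures used Python 3.11.15 and matplotlib 3.10.9.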

Additional observations from a re-analysis of the deposited data

Results flagged for a closer look

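On 45 sets of 4 arrays (15 probes in 3 groups), 2 had 1 array far from the others by Dixon's criterion, and chance alone marks about 1 in 20 such sets. CFB read 10.51 on the CYT1 array of biological replicate 1 and technical number 2, against 10.40 to 10.41 on the other 3 CYT1 arrays, a gap of 0.894 of the range. The SAA1 probe ILMN_1808732 read 7.47 on that same array, against 6.35 to 6.53 on the others, a gap of 0.836 of the range.

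CD14 differed between the ICD forms by 0.64 on the log2 scale, at an adjusted p of 0.0449 in the limma model, the 1 of 15 probes called in that comparison.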

How the results depend on the processing

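Of 18 other settings, 2 were chosen after the data were seen, median scaling over the probes tested and the technical number as the replicate. CFB, LCN2 and both CD59 probes with both forms, CD55, the brighter CD14 probe and 2 of 3 SAA1 probes with CYT1, and both SOD2 probes with CYT2 were called under all 18. Where a replicate was left out, its group had 1 sample, assumed to vary like the others.

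The CYT1 comparison called 6229 probes, against 3720 with technical arrays 1 alone, 3931 with technical arrays 2 alone and 3969 to 5688 without 1 replicate. CYT2 called 5272, against 2972, 2937 and 3020 to 4921. CYT2 against CYT1 called 82, against 995 with quantile scaling of uncorrected signals, 706 with the deposited log2 values, 482 with an offset of 50, 377 with detection p under 0.01 and 1094 with a random block over 12 arrays. It called 51 with median scaling over the probes tested, 23 with the technical number as the replicate, 2 without a detection filter, 1 and 2 with technical arrays 1 or 2 alone and 0 to 3 without 1 replicate. The split of higher and lower probes was 2895 and 3334 for CYT1, against 2354 and 4648 with median scaling over all probes and 2292 and 5037 with the deposited values. For CYT2 it was 2558 and 2714, against 2218 and 3757 and 2070 and 4560. The random block had a consensus correlation of -0.144 within a biological replicate. That fit thus counted technical arrays as at least independent, so its calls are no added support.

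Of the 10 genes, 9 were called with CYT1 (6 with technical arrays 1 alone, 7 without a detection filter). With CYT2 7 were called (4 without a detection filter, 5 with technical arrays 1 alone). Between the forms 1 was called, against 3 with quantile scaling, the deposited values, an offset of 50 or the random block (CD14, SAA1 and SOD2) and 2 with detection p under 0.01. In limma, 0 were called with either median scaling, without the filter, with technical arrays 1 or 2 alone, with the technical number as the replicate and, as a range, 0 to 0 without 1 replicate, where 3 or 4 had an unadjusted p under 0.05.

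Values not called as reported changed sign as follows. With technical arrays 2 alone SAA2 was 0.26 with CYT1, the dimmer CD14 probe 0.022 with CYT2 and NFKBIA -0.12 between the forms. With technical arrays 1 alone SAA1 was 0.13 (ILMN_2304512) and -0.15 (ILMN_1808732) and SAA2 -0.20 with CYT2, and between the forms CFB was 0.035 and the dimmer CD59 probe 0.12. Without 1 replicate SAA2 ran from -0.32 to 0.075 with CYT1, and with CYT2 SAA1 ran from -0.065 to 0.060 and the dimmer CD14 probe from -0.34 to 0.078. Between the forms the dimmer CD59 probe ran from -0.19 to 0.049 and NFKBIA from -0.030 to 0.075. The cause was not tested.

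Over the lists, the genes called ran from 4 to 9 with CYT1 and 2 to 8 with CYT2 for Toll-like and IL-1 signalling, 1 to 8 with CYT2 for IL-6 and STAT3, and 1 to 5 with CYT2 for superoxide and peroxide enzymes.

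Of the 18 settings, 7 ended the CYT2 call of IRAK1 and of PIAS3, 5 either call of IL6 and the CYT2 calls of CAT and SERPINA1, and 4 the CYT1 call of C5 and the CYT2 call of CHUK.

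Biological numbers did not pair the samples across groups, with correlations of -0.01, 0.00 and 0.02. With the replicate block the probes called were 5719, 4732 and 2, and the genes called 8, 7 and 0.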
